A study of Mus musculus with 73 samples.

Results

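The data described here are the contacts that chromosome conformation capture carbon copy (5C) measured inside a stretch of 2.06 Mb at the downstream end of the assayed part of the mouse X chromosome, X:101370001-103425147 (build mm9). A member is a pair of 1 forward and 1 reverse 5C primer whose restriction fragments both have their midpoint in that stretch. The deposited primer lists placed 236 forward and 249 reverse primers there, which gave 58764 possible pairs, 19.8% of all 297498 pairs of the primer pool. Of these pairs, 57241 had at least 1 count in some library, 18839 had a count in all 10 libraries and 1523 were never seen. Members were selected on position, and the stretch was chosen by its distance from the edits with earlier 5C values of the same libraries known. The counts of called differences between genotypes given below are therefore a description and no independent support for calling the stretch unaffected. At the limit, the first fragment inside has its midpoint at X:101370283 and the last one outside lies at X:101360446-101361974, while the downstream limit is the end of the pool.

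The study edited the X-inactivation centre, which holds the silencing RNA Xist and its antisense gene Tsix, in mouse embryonic stem (ES) cells and followed contacts, RNA and Xist binding. The 10 libraries used here were of male ES cells (line E14Tg2a, strain 129/Ola, XY), with no treatment named and grown in serum with leukemia inhibitory factor: 2 of wild type (WT) and 2 each of the deletions XiteE-del and XiteC-del and of the inversions XiteE-inv and XiteC-inv. Xite is an element known as an enhancer of Tsix. The sources used here do not explain the letters E and C or give the coordinates of the edits. The labels carry a line name for each library: both XiteE-inv libraries bear the same name, the other edited genotypes bear 2 names each, and nothing says whether libraries came from separate cultures, so p-values measure the spread between these libraries, which may be technical. 5C counts hold no marker genes, so the cell type is taken from the labels.

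In 5C, crosslinked chromatin is cut, neighbouring ends are ligated, and primers placed on chosen fragments count how often each fragment pair was joined. Mammalian chromosomes are folded into topologically associating domains, stretches whose sequences meet each other more often than they meet sequences across the domain border, and such borders often hold sites of the protein CTCF. A count averages over many cells, so a contact made in fewer cells and a contact made less often in each cell cannot be told apart.

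The libraries held 16267499 to 23928188 counts. In XiteE-del, 2 fragments within X:100623271-100633845 fell to at most 4.91% of their wild-type level in both libraries. In XiteC-del, the fragment X:100636563-100639613 fell to at most 3.61%. These lost fragments lie 736 and 730 kb upstream of the stretch, and neither inversion lost a fragment, which an inversion need not do. The labels also carry a code, B100 in 8 libraries and B101 in WT replicate 2 and XiteE-inv replicate 2, which the sources used here do not explain. The B101 libraries stood apart throughout the pool: 0.28% of their counts joined X to chromosome 5 in both, against 1.2% to 1.76% in the B100 libraries. Values within the B100 libraries are therefore given beside the comparisons of edited with wild-type cells over all libraries, except for single bin pairs, whose levels are given by library.

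Contacts inside the stretch declined with distance in all 10 libraries. In the 8 B100 libraries the mean level per possible primer pair was 71.7 ± 2.57 (SD) counts scaled to the library total (CPM) under 30 kb apart, 14.9 ± 0.59 at 30 to 100 kb, 6.71 ± 0.24 at 100 to 300 kb, 3.13 ± 0.08 at 300 kb to 1 Mb and 1.39 ± 0.09 at 1 Mb or more. The 2 B101 libraries had 91.8 and 100.1 CPM under 30 kb and 0.69 and 0.77 CPM at 1 Mb or more, both outside the range of the B100 libraries, which was 67.6 to 75.7 and 1.23 to 1.48 CPM. The slope of the log10 level on the log10 distance between 30 kb and 1 Mb was between -0.72 and -0.66 in the B100 libraries and -0.80 in both B101 libraries. The decline was thus steeper in the B101 library of both genotypes that have one of each code.

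After correction for distance and for the overall yield of each primer, 5 borders divided the stretch into 6 domains. A border is a 30 kb bin edge at which the contacts between the 150 kb to its left and the 150 kb to its right were lowest among the edges within 150 kb and below the median of all edges, in the mean of the 10 libraries. Edges less than 150 kb from either end of the stretch were left out. Among the 5 borders the crossing level, the log2 of observed over expected counts across the edge, was lowest at X:102240000 (-0.55) and at X:102960000 (-0.50), followed by X:103200000 (-0.37), X:101970000 (-0.16) and X:101700000 (-0.12). All 10 libraries were below 0 at all 5 borders. At X:102240000 they ran from -0.63 to -0.49, at X:102960000 from -0.63 to -0.33, and at X:103200000 from -0.49 to -0.22. Of the edges that are no border, X:102330000 (-0.51), 90 kb from a deeper one, and X:103380000 (-0.51), near the end of the pool, were slightly deeper than X:102960000. The weak borders at X:101970000 and X:101700000 ranged from -0.25 to -0.05 and from -0.14 to -0.08. The 2 wild-type libraries alone gave the same 5 borders.

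**Figure D1:**
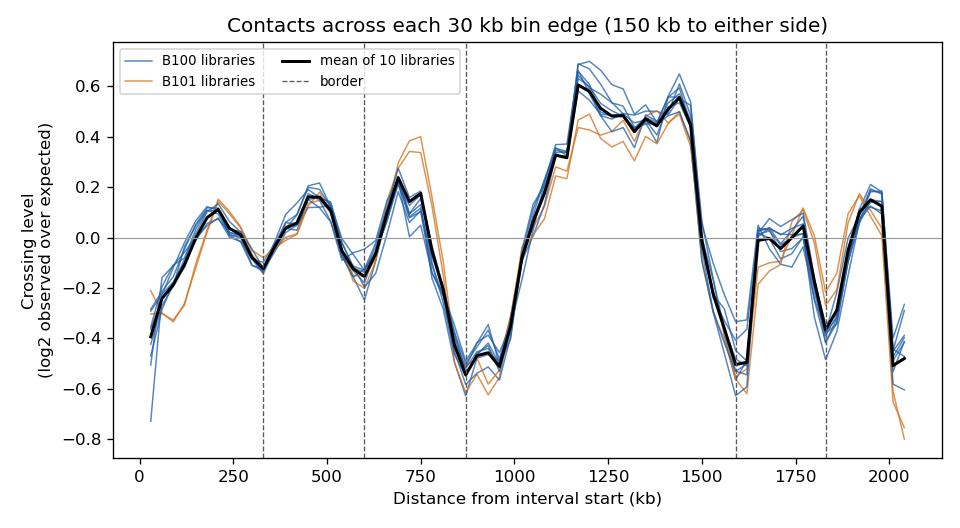
Crossing level (log2 observed over expected counts, vertical axis) at each of 68 bin edges of 30 kb, by distance from the start of the stretch in kb (horizontal axis). Thin lines are the 10 libraries, coloured by the B code of their labels, the thick line is their mean and dashed lines mark the 5 borders; the deepest minimum lies 870 kb from the start.

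The domain between the 2 deepest borders, domain 4 (X:102240001-102960000, 720 kb, 143 fragments), was the longest of the 6 and had the highest level of contacts within itself. Observed over expected inside it was 1.25 ± 0.02 (SD over the 10 libraries), ranging from 1.22 to 1.27. The other domains, in order along the chromosome, had 0.96 ± 0.01 (domain 1, X:101370001-101700000), 1.04 ± 0.02 (domain 2, X:101700001-101970000), 1.00 ± 0.07 (domain 3, X:101970001-102240000), 1.1 ± 0.03 (domain 5, X:102960001-103200000) and 1.06 ± 0.03 (domain 6, X:103200001-103425147). The 10 libraries of domain 4 thus lay above those of every other domain, whose highest single value was 1.16, in domain 5. In domain 3 the B101 libraries, at 1.12 and 1.14, were above the B100 libraries, which ran from 0.92 to 0.99.

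Domain 4 made few contacts with the 3 domains before it. Observed over expected was 0.72 ± 0.05 with domain 1, 0.73 ± 0.03 with domain 2 and 0.65 ± 0.06 with domain 3, and no library exceeded 0.77. Its contacts with domain 5 were at 0.89 ± 0.03 and with domain 6 at 1.07 ± 0.04. The 3 domains before it met each other at or above the expected level: 1.09 ± 0.02 between domains 1 and 2, 1.25 ± 0.08 between 1 and 3, and 1.09 ± 0.01 between 2 and 3. By these values the border at X:102240000 separated the first 3 domains as a block from domain 4, whereas the borders among them were shallow.

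**Figure D2:**
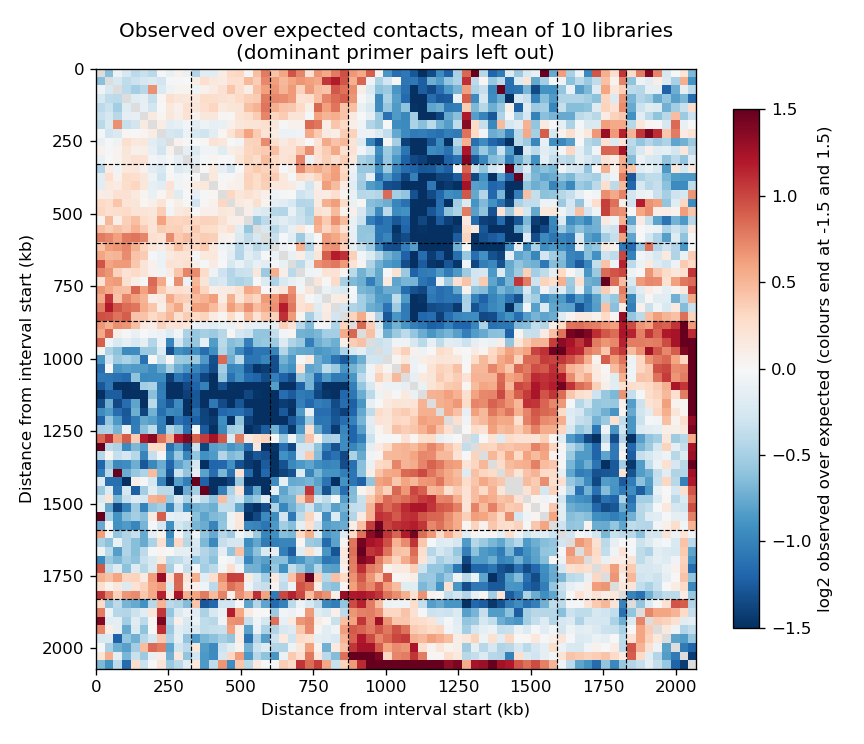
Observed over expected contacts (log2, colour) between 30 kb bins by distance from the start of the stretch in kb on both axes, mean of 10 libraries, without the dominant primer pairs described in the text; dashed lines mark the borders and grey marks cells without pairs of 30 kb or more. Blue blocks between the first 3 domains and the fourth show their low contacts (0.60 to 0.75 without those pairs), and domain 4 shows as a red block on the diagonal (1.22 inside).

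The 5 bin pairs with the highest observed over expected level at 150 kb or more apart, out of 2046 with a mean of at least 50 counts, each rested on 1 primer pair. They were X:101370001-101400000 with X:103230001-103260000 (mean 20.5 times the expected level), X:101580001-101610000 with X:103290001-103320000 (19.9), X:102090001-102120000 with X:103170001-103200000 (13.5), X:102120001-102150000 with X:103140001-103170000 (12.3) and X:101790001-101820000 with X:102360001-102390000 (9.97). The bins of a pair lay 570 to 1860 kb apart. A single primer pair out of 12 to 45 supplied 91.7% to 97.2% of the counts of each.

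Such dominant primer pairs were counted by a rule chosen after seeing the data: X primer pairs at least 150 kb apart whose mean level was 20 times or more the mean of their separation class. The stretch held 90 of them, 0.180% of its 50133 primer pairs at that separation, on 36 forward and 58 reverse primers. They lay 233 to 1872 kb apart. The last pair inside the rule stood at 20.03 times its class and the first outside at 19.85. They held 5.54% of the counts of the stretch in WT replicate 1 and 1.53% in WT replicate 2. The XiteE-del libraries had 5.42% and 5.45%, XiteE-inv 5.65% and 1.69%, XiteC-del 4.26% and 5.08%, and XiteC-inv 6.26% and 4.81%. The 2 low values are those of the B101 libraries. Among the B100 libraries, both of XiteC-del lay below both of XiteE-del, and those of XiteC-inv lay on either side of WT replicate 1.

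The most abundant of them joined the fragments X:102136939-102138975 and X:103139767-103146624, 1005 kb apart. Its level was 2378 CPM in WT replicate 1 and 896 CPM in WT replicate 2, 2299 and 2761 in XiteE-del, 2359 and 1026 in XiteE-inv, 2444 and 2568 in XiteC-del, and 3477 and 2949 in XiteC-inv. The second joined X:101580647-101581220 and X:103292132-103293305, 1712 kb apart, at 1768 CPM in WT replicate 1 and 165 CPM in WT replicate 2, 1866 and 2254 in XiteE-del, 1958 and 190 in XiteE-inv, 1773 and 1804 in XiteC-del, and 2509 and 2175 in XiteC-inv. In both, the 2 B101 libraries were the lowest. Among the B100 libraries, both XiteC-inv libraries were above all others in the first pair, and in the second XiteC-del lay below XiteE-del; these differences were not tested. Of the 90 pairs, 70 were lower in both B101 libraries than in any B100 library, 4 were higher in both and 16 overlapped. The median ratio of the B100 mean to the B101 mean was 7.10. Both the split and the ratio are partly set by the rule, which favours pairs high in B100. The same split over all primer pairs at that separation was not computed, so neither is support for a difference between the codes.

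**Figure D3:**
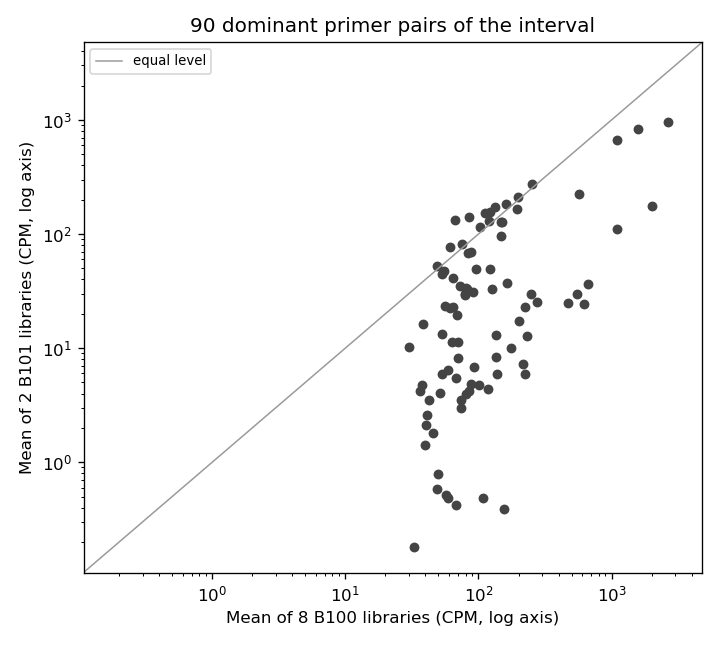
Level of each of the 90 dominant primer pairs (points) as the mean of the 8 B100 libraries (horizontal, CPM, log axis) and of the 2 B101 libraries (vertical, CPM, log axis); the line marks equal levels. Most points lie below the line, 70 of them with no overlap between the libraries of the codes. The pairs were chosen on the mean of all 10 libraries, 8 of them B100, which favours points below the line.

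The dominant pairs changed some values of the map. With them left out, observed over expected between domains 3 and 5 was 0.93 ± 0.07 in place of 1.54 ± 0.17, and between domains 1 and 6 it was 0.94 ± 0.01 in place of 1.34 ± 0.19, so both went from above to below the expected level. They held on average 60.4% and 42.4% of the counts between these domains. Domain 4 stayed low with the 3 domains before it, at 0.75 ± 0.04, 0.60 ± 0.04 and 0.64 ± 0.05, and kept 1.22 ± 0.01 within itself. Of the borders 4 stayed in place and the one at X:102240000 moved to X:102330000. Without dominant pairs, the highest bin pair was X:101370001-101400000 with X:102900001-102930000, at 6.44 ± 3.76 times the expected level. It had 0.75 and 0.32 in the B101 libraries, and 1 primer pair supplied 45.9% of its counts. The next was X:102270001-102300000 with X:103380001-103410000, 1110 kb apart in domains 4 and 6, at 4.60 ± 1.22 times the expected level. Its values were 3.44 and 5.58 in WT, 5.22 and 4.12 in XiteE-del, 2.44 and 6.13 in XiteE-inv, 5.73 and 3.66 in XiteC-del, and 4.05 and 5.61 in XiteC-inv. Its counts were spread over 22 primer pairs, of which the largest supplied 9.75%, and all 10 libraries were above the expected level. The ranking used the mean of these same libraries, which favours such values, so they are a description only.

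The 3 forward and 3 reverse primers with the most counts in the stretch each took 1.05% to 1.43% of them on average, against a median of 0.41% over 236 forward and 0.40% over 249 reverse primers. The first forward primer, on X:103180843-103182303, took 1.43% ± 0.39 (lowest library 0.77%, highest 1.90%) and belonged to 15 dominant pairs, the most of any primer. The other forward primers lay on X:102080398-102080981 (1.2% ± 0.25) and X:102141535-102144328 (1.16% ± 0.29). The reverse primers lay on X:102118766-102118897 (1.09% ± 0.35), X:103292132-103293305 (1.06% ± 0.18) and X:103137979-103138749 (1.05% ± 0.06). 5C counts of a primer depend on how well it anneals and amplifies as well as on contacts, so these shares do not rank fragments by how often they are in contact.

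The comparison of edited with wild-type cells asks whether edits at Xite altered contacts more than 0.7 Mb away. Of each library's counts, the stretch held 36.2% and 40.4% in the 2 WT libraries, 36.4% and 36.8% in XiteE-del, 36.2% and 40.5% in XiteE-inv, 37.7% and 36.7% in XiteC-del, and 35.8% and 37.5% in XiteC-inv. The groups overlapped, and the 2 values above 40% are those of the B101 libraries. The mean was 37.2% ± 1.49 (SD, n = 8) in edited and 38.3% ± 2.99 (n = 2) in WT libraries, a difference of -1.08 points with p = 0.622 (exact two-sided permutation test over 45 assignments, smallest possible p 0.0222). Within the B100 libraries the 7 edited ones were 0.56 points above the 1 wild-type library, which allows no useful test.

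Long-range pairs, at least 500 kb apart, held 19.3% and 13.1% of the counts of the stretch in WT, 19.6% and 19.7% in XiteE-del, 20.7% and 12.1% in XiteE-inv, 17.8% and 19.1% in XiteC-del, and 20.02% and 17.8% in XiteC-inv. The B101 libraries were again the 2 that stood apart, here as the lowest. Edited minus WT was 2.14 points (18.3% ± 2.73 against 16.2% ± 4.42, exact permutation p = 0.467), and -0.09 points within the B100 libraries. Without the dominant primer pairs, long-range pairs held 15.3% and 12.04% in WT and 10.9% to 16.7% in edited libraries, a difference of 1.24 points (exact permutation p = 0.422), or 0.17 points within the B100 libraries.

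Of the counts at 30 to 600 kb, 46.2% and 44.2% crossed a border in WT, 46.4% and 47.6% in XiteE-del, 47.2% and 43.7% in XiteE-inv, 46.1% and 46.4% in XiteC-del, and 46.8% and 46.5% in XiteC-inv. Edited libraries had 46.3% ± 1.16 and WT libraries 45.2% ± 1.42, a difference of 1.11 points (exact permutation p = 0.267), or 0.48 points within the B100 libraries. Adjusted over the 3 measures by Benjamini-Hochberg, p was 0.622 for each. In the test over all 10 libraries none of the 3 differences was larger than the spread between libraries.

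**Figure D4:**
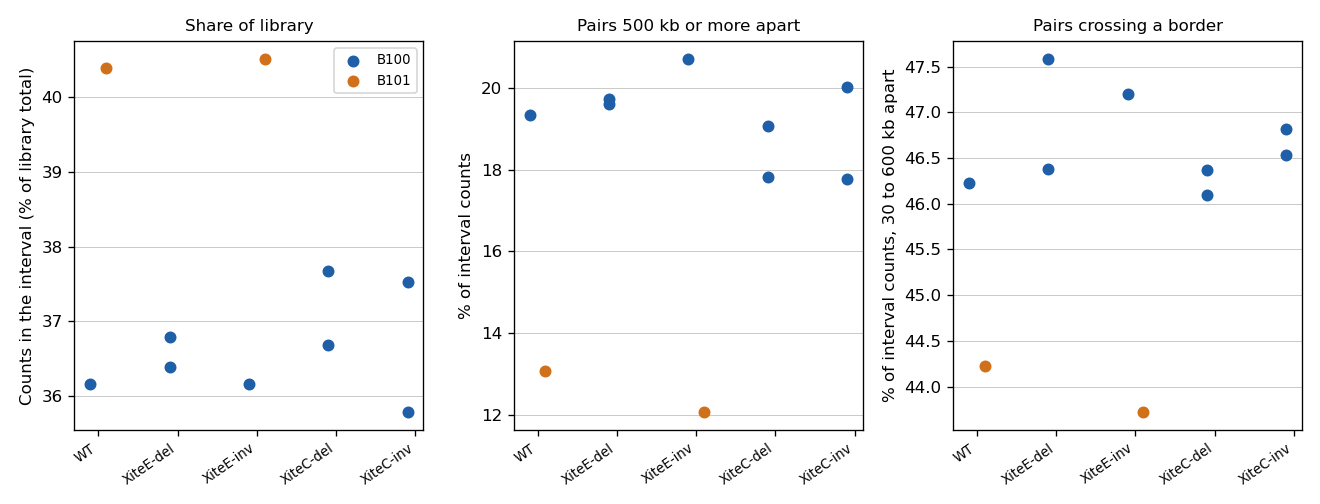
Share of library counts in the stretch, share of its counts in pairs at least 500 kb apart, and share of counts at 30 to 600 kb that cross a border (vertical axes, %), 1 point per library, by genotype (horizontal) and B code (colour). The vertical axes do not start at 0. The 2 B101 libraries stand apart in each panel, with 40.4% and 40.5% in the first.

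Contacts were then tested 1 by 1 as pairs of 30 kb bins. Of 11769 bin pairs tested in the pool, 2411 lay in the stretch. With edgeR's quasi-likelihood test and Benjamini-Hochberg adjustment over all 11769, no bin pair of the stretch was called at 0.05 for XiteE-del, XiteE-inv, XiteC-del, XiteC-inv or the mean of the 4 edited genotypes against WT, and the share called in the whole pool was 0% in each of the 5 comparisons. At an unadjusted p under 0.05 the stretch held 51 bin pairs for XiteE-del (2.12%), 21 for XiteE-inv, 20 for XiteC-del, 25 for XiteC-inv and 26 for the mean of edited genotypes (1.08%), against 3.41%, 2.06%, 1.64%, 2.37% and 1.94% over all pairs tested. DESeq2 called 1 bin pair of the stretch for XiteE-del and 0 for the others, where it called 11, 5, 0, 6 and 2 of all 11769. The test had little power over the whole pool. On simulated counts for XiteC-del against WT, 200 of 11713 tested pairs were changed. Of these, 1% of the changes of 2-fold and 7% of those of 4-fold were called. The changed pairs were drawn from the whole pool, where the median standard error for XiteC-del was 0.64, against 0.38 in the stretch. Power within the stretch was not computed. The absence of calls does not show that contacts were alike.

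The sizes of the differences say more than the calls. The median log2 fold change over the 2411 bin pairs was -0.01 for XiteE-del, 0.00 for XiteE-inv, 0.03 for XiteC-del and -0.04 for XiteC-inv, against 0.17, -0.03, 0.12 and 0.07 over all pairs tested. Within the B100 libraries the medians of the stretch were 0.05, 0.06, 0.08 and 0.02. Between 94.3% (XiteE-del) and 96.1% (XiteC-del) of the bin pairs of the stretch differed by less than 2-fold from WT. Over all pairs it was 80.8% and 85.6% for these 2 genotypes. In the upstream flank of the pool (X:98831149-99889288), also unedited, it was 97.7% and 98.9%, so the stretch lay between the flank and the pool. With trimmed-mean (TMM) scaling the medians of the stretch were -0.19, 0.06, -0.13 and -0.14, and those of all pairs 0.02, 0.02, -0.02 and -0.01, so the sign of these medians depends on the scaling. For XiteE-del and XiteC-del the median standard error of a log2 fold change was 0.295 in the flank, 0.38 in the stretch and 0.65 and 0.64 over all pairs. The shares within 2-fold follow the same order, so they do not separate the size of differences from their precision. Within domain 4 the medians were -0.13 for XiteE-del, 0.02 for XiteE-inv, -0.06 for XiteC-del and -0.18 for XiteC-inv.

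None of the bin pairs with the smallest unadjusted p was called. All but X:101940001-101970000 with X:103200001-103230000 had a bin in domain 4. That domain is the longest, 720 kb of the 2.06 Mb, so many bin pairs of the stretch have a bin in it. The share of all bin pairs that do was not computed, so this is not read as a concentration there. For XiteE-del, X:102150001-102180000 with X:102450001-102480000 had 30.2 and 51.8 CPM in WT and 12.5 and 19.4 CPM in XiteE-del (log2 fold change -1.36, SE 0.39, edgeR adjusted p = 0.978). For XiteE-inv, X:102690001-102720000 with X:102870001-102900000 had 89.0 and 87.7 CPM in WT and 51.2 and 52.8 in XiteE-inv (-0.76, SE 0.25). For XiteC-del, X:102390001-102420000 with X:103320001-103350000 had 29.4 and 50.6 CPM in WT and 85.1 and 74.7 in XiteC-del (1.00, SE 0.31). For XiteC-inv, X:102690001-102720000 with X:102750001-102780000 had 183 and 231 CPM in WT and 113 and 115 in XiteC-inv (-0.86, SE 0.27). These 4 were picked by smallest p, which favours pairs without overlap between the genotype and WT. Their lack of overlap is therefore no support for a difference. Libraries of other genotypes could come close to those of the named one. In the second pair XiteC-inv replicate 2 had 49.5 CPM, and in the last XiteE-del replicate 2 had 122 CPM.

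The remaining low-p pairs had lower levels, below 50 CPM in each library. X:101610001-101640000 with X:102930001-102960000 had 9.04 and 3.75 CPM in WT and 0.11 and 0.13 CPM in XiteE-del. X:101940001-101970000 with X:103200001-103230000 had 18.7 and 22.8 CPM in WT and 1.49 and 4.50 in XiteE-inv. X:102630001-102660000 with X:103230001-103260000 had 5.89 and 13.5 CPM in WT and 34.97 and 24.4 CPM in XiteC-del, and it was also among the 2 lowest p of the mean of edited genotypes. X:102780001-102810000 with X:103200001-103230000 had 18.5 and 4.49 CPM in WT and 1.68 and 2.71 CPM in XiteC-inv. For the mean of edited genotypes, X:101490001-101520000 with X:102420001-102450000 had 18.0 and 19.9 CPM in WT and 28.1 to 45.6 CPM in the 8 edited libraries (0.98, SE 0.30, edgeR adjusted p = 1.00).

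The B code of the labels, which is no comparison of the study, went with larger differences than any genotype. It was tested after seeing the data, as B101 minus B100 in a fit with a mean per genotype, so that it rests on the 2 genotypes with a library of each code. Of the 2411 bin pairs of the stretch, 463 were called (19.2%; edgeR adjusted p under 0.05), 201 higher and 262 lower in B101, where 26.9% of all pairs tested were called, 4.3% higher and 22.6% lower. Among same or neighbouring bins the median log2 fold change was 0.42, with 104 of 133 bin pairs higher and 3 lower. At 510 to 990 kb it was -0.10, with 13 higher and 90 lower of 748. Beyond 990 kb it was -0.59, with 6 higher and 132 lower of 630. The sign thus changed with distance, in the libraries that also had the steeper decline. With TMM scaling the median over the stretch moved from 0.00 to 0.40 and the split was 685 higher and 138 lower, with an offset per distance class 105 and 117, and with DESeq2 812 and 144, so the balance of the directions in the stretch depends on the scaling. Over all pairs tested the same settings gave 1568 higher and 1919 lower, 383 and 601, and 1937 and 2370, with more falls than rises in each.

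The called falls with the smallest p were bin pairs carried by dominant primer pairs. X:101580001-101610000 with X:103290001-103320000 had 1875 to 2681 CPM in the 8 B100 libraries and 198 and 233 CPM in the B101 libraries (log2 fold change -3.22, SE 0.10, edgeR adjusted p = 2.7e-13). X:101970001-102000000 with X:102360001-102390000 had 55.0 and 65.5 CPM in B101 (-3.66) and X:102120001-102150000 with X:103110001-103140000 had 74.3 and 63.6 CPM (-3.37). The largest primer pair supplied 82.7% to 95.5% of the counts of these 3. Without dominant primer pairs 454 bin pairs of the stretch were called (18.8%), 214 higher and 240 lower. Over all pairs tested 25.5% were then called, 528 higher and 2471 lower. The called rise with the smallest p was X:103080001-103110000 with X:103410001-103440000 (4.29, SE 0.54, edgeR adjusted p = 1.1e-05). It had 25.2 and 28.5 CPM in B101 and 0.83 and 2.10 CPM in the B100 libraries of WT and XiteE-inv. The other B100 libraries had 16.2 to 22.9 CPM, so this rise does not set the codes apart. Contacts within the bin X:103110001-103140000 had 5384 and 5975 CPM in B101 and 3596 to 4247 CPM in B100 (0.57, SE 0.07). Those within X:101640001-101670000 had 4001 and 4536 CPM against 2625 to 3135 (0.59, SE 0.08).

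**Figure D5:**
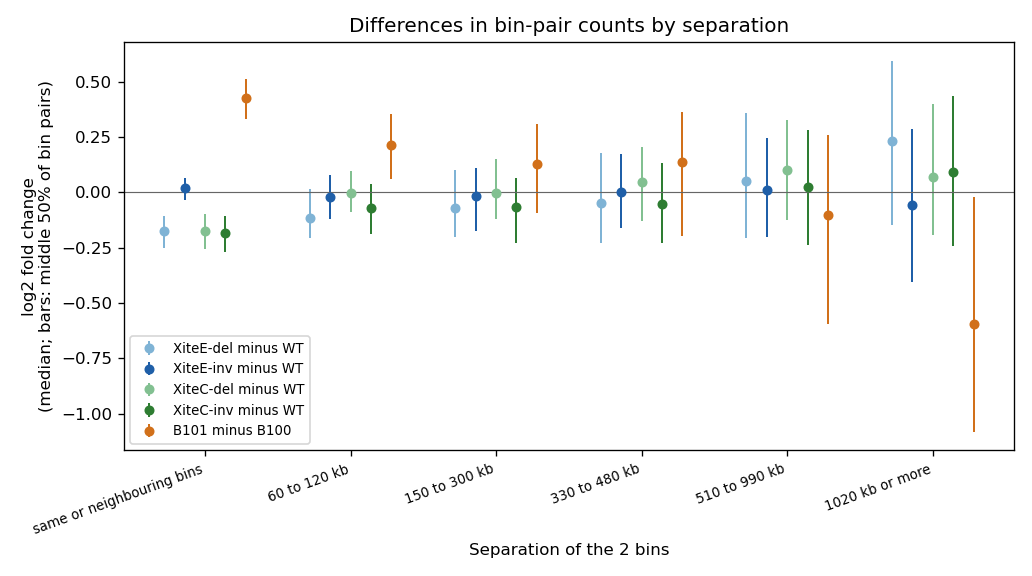
Median log2 fold change of the bin pairs of the stretch (points; bars span the middle 50% of bin pairs) by separation of the bins (horizontal), for each genotype minus WT and for B101 minus B100. The B code ran from 0.42 at the shortest to -0.59 at the longest separations, while the genotype medians stayed between -0.18 and 0.23.

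XiteE-del, XiteC-del and XiteC-inv have no B101 library, so genotype and code are partly confounded in their comparisons with WT. A code term in the fit rests on WT and XiteE-inv alone. The cause of the following values was not tested. Among same or neighbouring bins the median log2 fold change was -0.18 for XiteE-del, -0.17 for XiteC-del and -0.18 for XiteC-inv, whose libraries are all B100, and 0.02 for XiteE-inv, which like WT has 1 library of each code. With the B code as a term in the fit these medians were 0.03, 0.04, 0.04 and 0.01. Beyond 990 kb the XiteE-del median of 0.23 became -0.04, and that of XiteC-del, 0.07, became -0.17.

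With the code in the fit, 1 bin pair of the stretch was called for XiteE-del, XiteC-del, XiteC-inv and the mean of edited genotypes, 0.0415% of the 2411, where 0.0425%, 0.11%, 0.263% and 0.0425% of all pairs tested were called. It was the same bin pair in each: X:103080001-103110000 with X:103410001-103440000, 330 kb apart in domains 5 and 6. Its level was 0.83 CPM in WT replicate 1 and 25.2 CPM in WT replicate 2, 16.2 and 19.2 in XiteE-del, 2.10 and 28.5 in XiteE-inv, 22.9 and 17.4 in XiteC-del, and 17.5 and 18.3 in XiteC-inv. The B100 libraries of WT and XiteE-inv were thus low and the B101 libraries of the same genotypes were at the level of all others. Without the code in the fit the log2 fold changes were 0.44 to 0.63 with SE of 1.06 to 1.31. The call rests on WT replicate 1 and, through the code term, on XiteE-inv replicate 1, which was also low. In the bin pair only 5 primer pairs have counts.

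The upstream flank of the pool (X:98831149-99889288), also unedited, had fewer long-range contacts. Pairs at least 500 kb apart held 2.84% to 4.87% of its counts, against 12.1% to 20.7% in the stretch of 2.06 Mb, which holds longer separations. At 30 to 100 kb the levels were close: the B100 libraries had 14.8 ± 0.47 CPM per primer pair in the flank and 14.9 ± 0.59 in the stretch. At 300 kb to 1 Mb they had 2.28 ± 0.05 and 3.13 ± 0.08, a class not fully matched, since the flank is shorter. The slope between 30 kb and 1 Mb was -0.94 to -0.91 in the flank and -0.72 to -0.66 in the stretch, in the B100 libraries. Dominant primer pairs held 0.30% to 0.73% of their flank counts and 4.26% to 6.26% of their counts in the stretch. The long-range share of the stretch minus that of the flank differed by 1.72 points between edited and WT libraries (exact permutation p = 0.422), and by -0.02 points within the B100 libraries. The library share of the stretch minus that of the flank differed by 0.04 points (exact permutation p = 0.978), or 0.11 points within the B100 libraries. In B101 against B100, 165 of 666 bin pairs of the flank were called, 142 higher and 23 lower, with a median of 0.54 among same or neighbouring bins, so the pattern by code was not confined to the stretch.

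RNA antisense purification (RAP) of Xist sequences the DNA that Xist RNA is bound to. It gave a readout of windows that overlap the stretch, each with 2 pull-downs, in wild type and in other alleles than those of the 5C libraries. The alleles were 40kb [Tsix-Xist] (1 clone) and 70kb [Xite-Jpx] (1 clone). The deposited windows span 1 Mb, and 3 of them cover the stretch. The first held 3.90% and 3.78% of the counts in wild type, 3.09% and 2.95% in the 40kb clone and 3.50% and 2.21% in the 70kb clone, 6.47 to 18.8 times the median window of each pull-down, and ranked 2 or 3 of 164. The next held 0.61% to 1.44% and the last 0.42% to 1.22%, or 2.35 to 4.00 and 2.08 to 3.15 times the median. In each of the 6 pull-downs the first window, which is the nearest to Xist, had the highest share of the 3. No input sample was analysed here, and the totals were 11962 to 58624 counts.

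Genes known to lie in the stretch were taken from RNA-seq of 4 wild-type libraries of the same line (37931578 to 41659773 counts); their mm9 positions were not in the tables used here, so none is placed in a domain. Of 13 genes described, 11 had at least 1 CPM in all 4 libraries. Pbdc1 had 82.5 ± 8.44 CPM (SD, n = 4), Zdhhc15, a palmitoyltransferase, 18.9 ± 2.21, and Uprt 4.01 ± 0.39 CPM. The MAGE family genes Magee1 and Magee2 had 2.12 ± 0.48 and 1.34 ± 0.23 CPM. Atrx (ENSMUSG00000031229.9), a chromatin remodeller, had 385 to 503 CPM. Magt1 had 44.5 ± 5.28, Cox7b, a subunit of cytochrome c oxidase, 175 ± 16.6, Atp7a, a copper transporter, 21.8 ± 2.10, and Taf9b 4.16 ± 0.88 CPM. Pgk1 (ENSMUSG00000062070.6), the glycolytic phosphoglycerate kinase, had 718 to 942 CPM. Fgf16 and Tlr13 had at most 2 counts in any library. CPM are not scaled to gene length, so the genes are not ranked by level, and no RNA library of the 4 genotypes with 5C data was analysed here.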

How the data were processed

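Each deposited 5C table gives unnormalized counts for pairs of primers, and the deposited primer lists hold fragment positions on mm9 (text and positions, an other unit than a measurement); the submitters' processing notes name Bowtie2 and mm9, while filters and counting rules are not given in the sources used here. The deposited RNA and RAP tables hold counts per gene and per 1 Mb window.

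Fragments were put into 30 kb bins by midpoint, their counts added up per bin pair and tested with edgeR 4.0.16 in R 4.3.3 (glmQLFit, glmQLFTest) in 1 model with the 5 genotypes as groups, the log library total as offset and a mean of at least 10 counts. The model left 5 degrees of freedom, and its biological coefficient of variation was 62.1%. The fit with the B code had 4 degrees of freedom and 47.9%. A standard error is the log2 fold change divided by the square root of F. Expected counts were the product of a forward, a reverse and a distance factor (25 log classes, pairs of 30 kb or more), fitted to each library by iterative proportional fitting. Shares were compared by exact permutation, 8 edited against 2 wild-type libraries. DESeq2 1.42.0 was the alternative tool. The fit was tested on simulated data.

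Members, domains, genes and tests were chosen with earlier results of these data known. Named contacts are up to 3 called rises and 3 called falls by smallest adjusted p, or, where none was called, the 2 smallest unadjusted p. Of the map they are the borders, the 5 highest bin pairs and, chosen after seeing the data, the 2 highest without dominant pairs. Of primers they are the 3 forward and 3 reverse with most counts. The RAP table holds 2 columns of no sample here, which were not used. No sequence is printed, since no mm9 genome was used here. Intervals for counting error are not given: amplified reads are not independent molecules. The RNA level of 1 further gene is not reported here.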

Additional observations from a re-analysis of the deposited data

Results flagged for a closer look

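Among the 8 edited libraries, XiteE-inv replicate 2 lay far from the other 7 in each of 4 measures: a sample counts as far when its gap to the nearest one, divided by the range of the group, exceeds Dixon's critical value for 8 samples, which chance alone does in about 1 of 20 groups. It had 40.5% of its counts in the stretch, and the nearest edited library had 37.7%. It had 12.1% of them in pairs at least 500 kb apart, and the nearest had 17.8%. It had 43.7% crossing a border, and the nearest had 46.1%. It had 1.69% in dominant primer pairs, and the nearest had 4.26%. The 4 measures are computed from the same counts and are not independent. This library and WT replicate 2 are those labelled B101, and WT replicate 2 had 40.4%, 13.1%, 44.2% and 1.53% in the same measures.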

How the results depend on the processing

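The number of bin pairs of the stretch called against WT was 0 under all 23 alternatives for XiteE-inv, 20 of 23 for XiteC-del and XiteC-inv, 19 of 23 for XiteE-del and 20 of 22 for the mean of edited genotypes, and 0 with each library left out in turn. With a B code term in the fit it was 1 for XiteE-del, XiteC-del, XiteC-inv and the mean of edited genotypes, and within the B100 libraries (chosen after seeing the data) 1 for XiteE-del, XiteC-del and XiteC-inv. DESeq2 gave 1 for XiteE-del. Single primer pairs, 44584 of them, gave 20, 3, 4 and 4 for XiteE-del, XiteC-del, XiteC-inv and the mean, with 167, 121, 32 and 144 of 153097 in the whole pool. With the replicate number as a block it was 0 in all 5; the numbers do not pair the libraries (correlations of deviations from -0.09 to 0.14, and 0.45 for WT with XiteE-inv, whose numbers coincide with the B codes). For B101 against B100 the 463 calls became 823 with TMM scaling, 222 with an offset per distance class and 956 with DESeq2. These are 34.1%, 9.21% and 39.7% of the stretch, where 29.6%, 8.36% and 36.6% of all pairs tested were called. Bins of 60 kb gave 268 of 594, with 1854 of 3137 (59.1%) in the whole pool. Single primer pairs gave 764 (1.71%), with 3342 of 153097 (2.18%) in the whole pool. With 1 library of XiteE-del, XiteC-del or XiteC-inv left out, 377 to 484 were called. The 4 libraries of WT and XiteE-inv, which set this difference, were not left out, so the range does not bear on its stability. The edited difference in library share, -1.08 points, became 0.32 without pairs under 30 kb and 0.56 within the B100 libraries, and ran from -3.20 to 1.04 with 1 library left out, the last without WT replicate 2. The long-range difference, 2.14 points, became -0.089 within the B100 libraries and ran from -0.98 (without WT replicate 2) to 5.27. The crossing difference ran from 0.11 to 2.12 and kept its sign under all 16 alternatives. Windows of 300 kb gave 2 borders, X:102300000 and X:102960000. No primer correction gave 4: X:101700000, X:102330000, X:102960000 and X:103200000. Neither set held X:102240000, the deepest border of the main setting, or X:101970000. The median primer pair of the stretch had 8 to 37 counts per library, which limits what single primer pairs can show. The cause of the changes was not tested.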

Other observations

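One forward fragment of domain 4, X:102641398-102643998, chosen after its values were seen, had 2 runs of partners. Besides its neighbours, it formed dominant primer pairs with 10 of the 12 reverse fragments at X:101698309-101759983, 885 to 943 kb away across the border of domains 1 and 2; no other forward primer had more than 4 dominant partners within 120 kb. This run took 29.3% ± 1.78 (SD, n = 10) of its counts in the stretch, from 27.1% to 32.2% over the libraries, and partners within 60 kb took 16.7%. The share was 31.0% and 30.4% in WT and 30.6% and 32.2% in XiteE-inv, the 2 genotypes with a library of each code. It is a share of the counts of 1 fragment, so it cannot be set against the CPM of the dominant pairs above. The 2 forward fragments on either side had 0.71% to 1.46% of their counts with that run. Whether the fragment's sequence also occurs near X:101698309 was not tested, since no mm9 genome was used here.

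Deviations of the libraries from the 10-library mean over 2377 bin pairs of the stretch, given as a description, correlated at 0.53 (Spearman) between the 2 B101 libraries, at 0.02 (median of 3 pairs) between B100 libraries of the same genotype and at 0.01 (25 pairs) between B100 libraries of different genotypes. The values share the mean that was subtracted.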
